A study of Mus musculus with 8 samples.

Results

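NF-kB is a family of dimeric transcription factors. Its subunits, its inhibitors and some of its feedback targets were followed in the mouse thyroid 24 hours after exposure to 99mTcO4-. This pertechnetate anion emits gamma rays and low-energy electrons, and the thyroid takes it up through the sodium iodide symporter. Spots were taken where the array's gene name was Rela, Relb, Nfkb1, Nfkb2, Nfkbia, Nfkbie, Bcl3, Tnfaip3, Birc3 or Icam1, and control spots were left out. This gave 14 probes for 10 genes, of 55681 probes and 34797 gene names on the array. None of the 14 probes passed the threshold on limma's adjusted p. The values that follow are of each gene's lead probe, its RefSeq probe of highest mean signal. The feedback genes Birc3, Nfkbie and Tnfaip3 were lower on every exposed array than on any control array, with mean log2 differences of −0.97, −0.98 and −0.89. So was the subunit Relb with −0.44. The other probes of Birc3 and Relb had overlapping groups. Over all probes, 9.11% showed no overlap of the groups. Nfkbia, a further feedback gene, had a difference in the other direction of 0.37, with overlapping groups. Icam1 had a log2 difference of 0.87 with an overlap of 1 array, and the subunits Rela, Nfkb1 and Nfkb2 differed by less than 0.20. A second probe of Nfkb1 gave −0.40 with overlapping groups.

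In resting cells NF-kB dimers are held in the cytoplasm by inhibitors of the IkB family. Cytokine, microbial or DNA damage signals activate the IKK kinase complex, which marks the inhibitors for degradation, and the freed dimers enter the nucleus. There they induce genes for adhesion molecules, chemokines and survival factors, and also the genes of their own inhibitors, so that mRNA of Nfkbia, Nfkbie, Tnfaip3 and Birc3 is widely read as a feedback product of the pathway. The activation step itself acts on proteins and leaves no direct trace in an mRNA measurement. Both thyrocytes and the immune and endothelial cells of the gland use the pathway.

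All mice were female Balb/c animals of 8 weeks on a diet of normal iodide content, with no genetic modification stated. The 4 exposed mice, S539, S588, S589 and S590 (Tc), received 99mTcO4- by intraperitoneal injection for an absorbed dose of 30 Gy to the thyroid. The 4 control mice, 1 to 4 (Ct), are called untreated in one place of the study and saline-injected in another. Thyroid RNA of each mouse was hybridised to its own one-colour Agilent array, and the intensity of a spot rises with the quantity of transcript that binds its probe.

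Between 60.5% and 77.3% of the spots of an array were well above background, and no spot was saturated. A single slide held the 8 arrays and was scanned once, and the exposed mice had its first positions. Position on the slide and group therefore cannot be told apart. All 10 genes of the thyrocyte list, among them Tg and Pax8, were well above background on all arrays. The same held for all 10 endothelial, 7 fibroblast and 6 skeletal muscle genes, so this does not set thyrocytes apart from other cells. Tg had a mean log2 signal of 18.87, beside 18.42 for Pth of the parathyroid list and 18.37 for Tnni2 of the muscle list. Markers of T cells stood apart on control arrays 1 and 2, with scores of 3.38 and 2.17 against a range from −1.16 to −0.19 on the other arrays. A score is the mean log2 signal of a list's genes after each gene was centred across the 8 arrays. Markers of neutrophils stood apart on S588, with 2.72 against −0.75 to 0.28. The log2 differences of the 10 lead probes are therefore also given without S588 and without controls 1 and 2.

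Many of these genes are known for sites that bind NF-kB near their start, and the reference sequences of 4 of them are shown to mark where such letters lie in the genes whose values are compared below. Promoter windows of 300 bases (250 before and 50 after the start) were taken from RefSeq on build GRCm38.p6, and 8 of the 10 genes had an entry. Relb and Nfkb1 had none. The kappaB consensus GGGRNNYYCC, a motif of 10 bases, was searched on both strands (R is A or G, Y is C or T, N any base). It was found in windows of 5 of the 8 genes (Nfkb2, Nfkbia, Nfkbie, Bcl3, Tnfaip3) and in no window of Rela, Birc3 or Icam1. Stretches that depart from these letters were not counted, so a window without a match may still hold other sites that bind NF-kB. Of all 32851 windows, 8.46% held a match. This share counts single windows, while the 8 genes had 11 windows and a gene was counted for a match in any of its windows. In the 250 bases before the start, printed 5′ to 3′ in the direction of the gene, capitals mark the matches, of which neighbouring ones overlap in Nfkb2.
Nfkb2 promoter, chr19:46304487-46304736, plus strand: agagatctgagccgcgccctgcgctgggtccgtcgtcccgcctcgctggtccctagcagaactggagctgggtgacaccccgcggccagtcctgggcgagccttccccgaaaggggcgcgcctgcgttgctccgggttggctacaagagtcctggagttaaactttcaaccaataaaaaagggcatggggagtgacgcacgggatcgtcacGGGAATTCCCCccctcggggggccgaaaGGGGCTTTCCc
Nfkbia promoter, chr12:55492648-55492897, minus strand: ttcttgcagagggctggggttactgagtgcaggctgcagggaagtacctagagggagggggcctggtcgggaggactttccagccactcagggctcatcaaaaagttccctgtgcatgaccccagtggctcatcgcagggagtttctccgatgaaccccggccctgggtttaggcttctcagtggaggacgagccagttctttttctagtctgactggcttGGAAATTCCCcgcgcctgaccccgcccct
Nfkbie promoter, chr17:45555450-45555699, plus strand: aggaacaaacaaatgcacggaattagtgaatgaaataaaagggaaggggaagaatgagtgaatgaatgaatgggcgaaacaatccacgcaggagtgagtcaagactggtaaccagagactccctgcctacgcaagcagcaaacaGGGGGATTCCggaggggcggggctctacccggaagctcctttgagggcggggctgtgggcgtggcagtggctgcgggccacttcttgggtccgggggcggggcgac
Tnfaip3 promoter, chr10:19015411-19015660, minus strand: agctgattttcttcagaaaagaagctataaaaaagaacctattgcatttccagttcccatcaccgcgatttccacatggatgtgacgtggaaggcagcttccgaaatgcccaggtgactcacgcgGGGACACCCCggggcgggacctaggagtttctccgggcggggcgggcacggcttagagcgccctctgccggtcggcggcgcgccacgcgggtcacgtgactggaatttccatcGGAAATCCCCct
The Nfkb2 and Tnfaip3 genes have further windows with other starts, and the window with most matches before the start was printed. The other Tnfaip3 window held no match. The match of Bcl3 lies after the start. Matching letters are a description of these windows and not a measurement of binding.

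The values of a gene are given by its lead probe, the RefSeq probe of highest mean signal, and are quantile-normalised log2 signals. All 14 member probes were well above background on all 8 arrays. Over all probes, 435 passed limma's threshold of 0.05 on the adjusted p, which is 0.781% of those tested, and among the 31039 probes well above background on all arrays the share was 1.10%. Of the 10 lead probes, 5 had an unadjusted limma p under 0.05, where the share over all probes was 12.2% and over the bright probes 13.6%. The groups did not overlap in 4 of the 10 lead probes, against 9.11% of all probes and 11.4% of the bright ones. The median log2 difference of the 10 lead probes, exposed minus control, was −0.19, with 4 higher and 6 lower, and that of all probes was 0.01. An exact permutation test over the 70 ways to choose 4 of 8 arrays has 0.0286 as its smallest p, and this value is reached only where the groups do not overlap. The array, not the thyroid cell, is the unit here, so fewer cells of a type and less RNA per cell cannot be told apart.

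**Figure D1:**
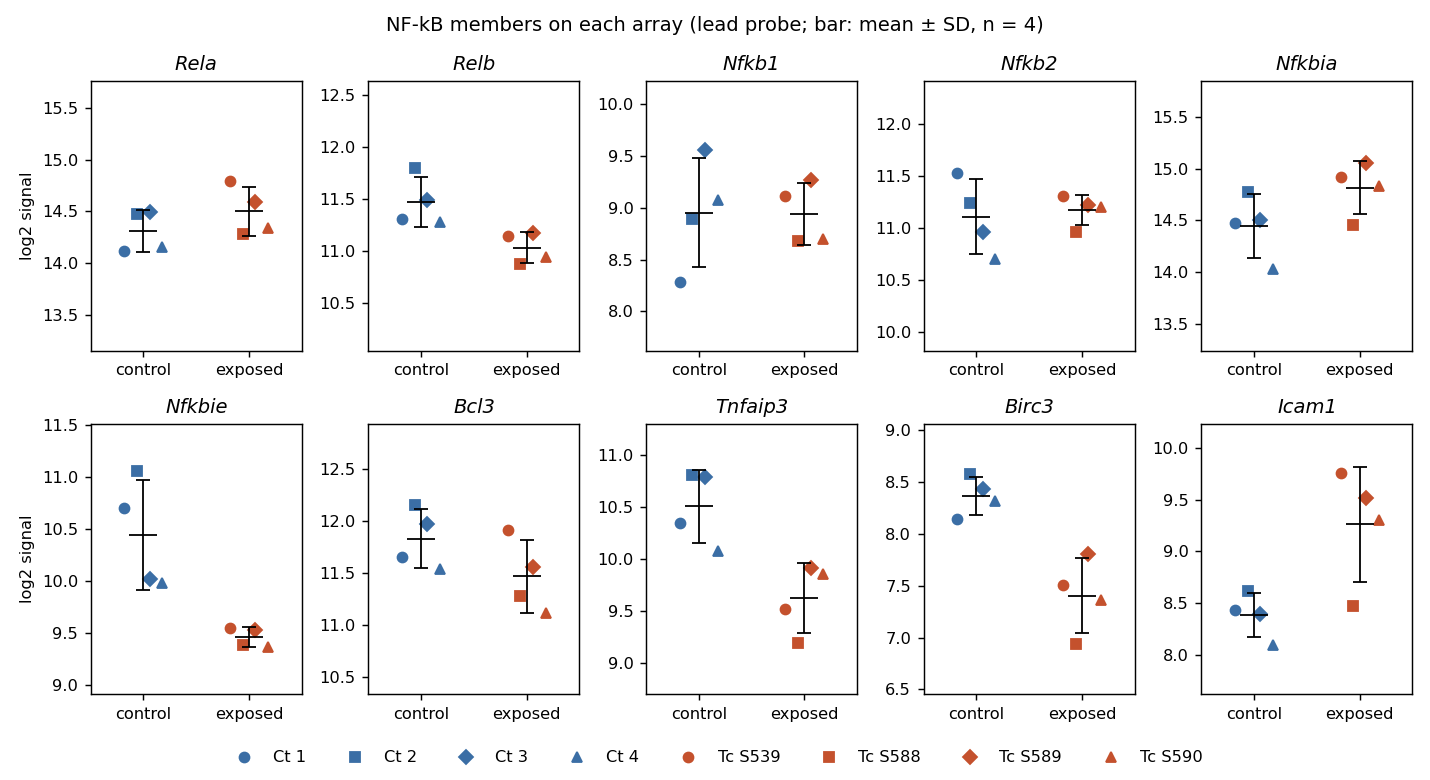
Log2 signal of the lead probe of each of the 10 genes (y axes, each spanning the same range) on the 4 control arrays (blue) and the 4 exposed arrays (orange), with symbols for the single arrays and bars for mean ± SD (n = 4). Relb, Nfkbie, Tnfaip3 and Birc3 show no overlap of the groups, and Icam1 overlaps through S588 alone.

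Rela encodes p65, the subunit with the strongest transactivation domain, and its probe lies at chr19:5648070-5648129 of mm9, the build of all probe positions given here. Its log2 signal was 14.12, 14.48, 14.50 and 14.15 on control arrays 1 to 4, and 14.79, 14.28, 14.59 and 14.34 on S539, S588, S589 and S590. S539 and S589 lay above all controls, and the other exposed arrays lay within the control range. The log2 difference was 0.19 with a standard error of 0.17 (limma's adjusted p = 0.684), and its 95% interval ran from −0.21 to 0.59. Without S539 it was 0.09 and without control 1 it was 0.12. With outlier spots left out, which takes away the value of some arrays, it was 0.43. A doubling or halving of Rela mRNA lies outside the interval over all arrays with all spots kept. No interval is given for the fit without outlier spots.

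Relb encodes the partner of p52 in the non-canonical pathway and was read by 3 probes. The lead probe, at chr7:20191722-20191781, had log2 signals of 11.31, 11.80, 11.49 and 11.28 on the control arrays and 11.14, 10.87, 11.17 and 10.94 on the exposed arrays. Every exposed array lay below every control array, by a margin of 0.11 between the nearest of them. The log2 difference was −0.44 with a standard error of 0.16. Limma's adjusted p was 0.348 and the exact permutation test gave p = 0.0286. A second probe, which overlaps the lead probe on the genome at chr7:20191773-20191832, gave −0.42 (limma's adjusted p = 0.420) with overlapping groups. The third probe was designed on an Ensembl transcript and lies at chr7:20203058-20203117. It gave 0.13 with a standard error of 0.26, with values from 8.97 to 9.91 on the control arrays and from 9.10 to 9.87 on the exposed arrays.

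Whether the Relb probes changed unequally was tested on their differences within each array. The lead probe minus the third probe was 2.20 ± 0.58 (SD, n = 4) on the control arrays and 1.63 ± 0.30 (SD, n = 4) on the exposed arrays. The ranges of the groups overlapped, and the two-sided exact permutation test gave p = 0.171 (0.286 after Benjamini-Hochberg adjustment over the 5 pairs of probes of 1 gene). None of these 5 pairs, in Relb, Nfkb1 and Birc3, had groups that did not overlap, and their exact p-values were at least 0.143. The difference in sign between Relb probes was not separable from the spread between arrays.

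Nfkb1 encodes p105, the precursor of p50, and its lead probe lies at chr3:135254550-135254609. Control arrays 1 to 4 gave 8.29, 8.89, 9.55 and 9.07 and the exposed arrays 9.11, 8.67, 9.27 and 8.70, so the exposed arrays fell inside the range of the controls. The log2 difference was −0.01 with a standard error of 0.28 (limma's adjusted p = 0.989), and its sign changed with the processing. Without controls 1 and 2 it was −0.37 (limma's adjusted p = 0.565). The 95% interval of the difference over all arrays ran from −0.67 to 0.65. A second probe of Nfkb1, at chr3:135247621-135247680 and spotted 2 times on each array, gave −0.40 with a standard error of 0.23 (limma's adjusted p = 0.524).

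Nfkb2 encodes p100, which restrains RelB until it is processed to p52. Its probe matches chr19:46386146-46386285, a span of 140 bases for a probe of 60 bases, so the match is split on the genome. Its log2 signal was 11.53, 11.24, 10.96 and 10.70 on the control arrays and 11.31, 10.96, 11.22 and 11.20 on the exposed arrays. The exposed arrays lay within the control range, and the difference was 0.06 with a standard error of 0.20 (limma's adjusted p = 0.920). Controls 1 and 2, the arrays with high T cell scores, were the 2 highest controls for this gene. Without them the log2 difference was 0.34 (limma's adjusted p = 0.462).

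The 3 inhibitors had differences of both signs. Nfkbia encodes IkB-alpha, the inhibitor that is resynthesised within hours of activation, and it was read by 1 probe whose match, chr12:56590945-56591440, is split over 496 bases. Its log2 signal was 14.47, 14.78, 14.50 and 14.03 on the control arrays and 14.92, 14.46, 15.06 and 14.83 on the exposed arrays. Of the exposed arrays, 3 lay above all controls and S588 lay below 3 of them. The difference was 0.37 with a standard error of 0.21 (limma's adjusted p = 0.507). Without S588 it was 0.49 (0.481) with no overlap, and without control 4 it was 0.23 (0.712). The probe is printed because its target is joined from separate stretches of the gene, and it reads 5′ to 3′ as given with the arrays.
Nfkbia probe: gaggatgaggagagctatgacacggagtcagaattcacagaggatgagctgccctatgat

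Nfkbie encodes IkB-epsilon, a second inhibitor that NF-kB itself induces, and its probe lies at chr17:45700000-45700059. The control arrays gave 10.70, 11.06, 10.02 and 9.98, and the exposed arrays gave 9.55, 9.39, 9.53 and 9.36. The 4 exposed arrays were close together and all lay below the lowest control. Their mean was 9.46 ± 0.10 (SD, n = 4) against 10.44 ± 0.53 (SD, n = 4), a log2 difference of −0.98 with a standard error of 0.26, or 0.506 times the control level. Limma's adjusted p was 0.179 and the exact permutation test gave p = 0.0286. The higher controls were again 1 and 2, and without them the log2 difference was −0.54 (limma's adjusted p = 0.259), still with no overlap. The part of T cell RNA in this difference was not tested.

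Bcl3 encodes a nuclear member of the IkB family that works with p50 and p52 homodimers, and its probe lies at chr7:20393826-20393885. The control arrays gave 11.66, 12.16, 11.97 and 11.54 and the exposed arrays 11.92, 11.28, 11.56 and 11.11. S539 lay within the control range, and the 3 others spread from its lower end to below it. The difference was −0.36 with a standard error of 0.23 (limma's adjusted p = 0.546).

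Tnfaip3 encodes A20, a ubiquitin-editing enzyme that shuts off signalling upstream of IKK, and its probe lies at chr10:18720776-18720835. The control arrays gave 10.35, 10.81, 10.79 and 10.08, and the exposed arrays gave 9.52, 9.19, 9.92 and 9.86. All exposed arrays lay below all controls, although control 4 and S589 were only 0.16 apart. The log2 difference was −0.89 with a standard error of 0.24, 0.541 times the control level. Limma's adjusted p was 0.192 and the exact permutation test gave p = 0.0286. Without controls 1 and 2 it was −0.81 and without S588 it was −0.74, and neither lowered the adjusted p.

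Birc3 encodes cIAP2, a ubiquitin ligase of the TNF receptor complex and an inhibitor of cell death. It was read by 2 probes, which are printed because they bind separate places of the same mRNA and can be set against each other.
Birc3 lead probe, chr9:7854409-7854468, minus strand: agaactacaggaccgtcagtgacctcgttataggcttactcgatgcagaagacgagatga
Birc3 other probe, chr9:7856162-7856221, minus strand: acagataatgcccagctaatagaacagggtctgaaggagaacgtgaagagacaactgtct
The lead probe gave 8.14, 8.58, 8.43 and 8.32 on the control arrays and 7.50, 6.93, 7.80 and 7.36 on the exposed arrays. No exposed array reached the lowest control, and this was the lowest adjusted p of the 14 member probes. The log2 difference was −0.97 with a standard error of 0.21, 0.512 times the control level, with a limma adjusted p of 0.108 and an exact permutation p of 0.0286. Under normexp background correction limma's adjusted p was 0.0451 and with array weights 0.0493, and over all alternatives it ran from 0.0451 to 0.279.

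The other Birc3 probe gave 9.22, 8.27, 8.10 and 8.15 on the control arrays and 8.40, 7.71, 7.57 and 7.47 on the exposed arrays. Control 1 stood above the rest, and S539 lay above 3 controls, so the groups overlapped. Its difference was −0.65 with a standard error of 0.31 (limma's adjusted p = 0.455). The probes' difference within an array was 0.07 ± 0.68 (SD, n = 4) on the control arrays and 0.39 ± 0.54 (SD, n = 4) on the exposed arrays (two-sided exact permutation test, p = 0.457). Birc2, a near relative of Birc3 that lies next to it on the chromosome and encodes cIAP1, had a log2 difference of 0.09 (limma's adjusted p = 0.828).

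Icam1 encodes an adhesion molecule for leukocytes and is a classical NF-kB target that p53 and interferon signals also raise. Its probe is printed because Icam1 is the only one of the 3 member targets whose signal was higher in exposed thyroids.
Icam1 probe, chr9:20832290-20832349, plus strand: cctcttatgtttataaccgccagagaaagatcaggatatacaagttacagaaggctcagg
The control arrays gave 8.44, 8.62, 8.39 and 8.10 and the exposed arrays 9.75, 8.47, 9.51 and 9.30. Of the exposed arrays, 3 lay above all controls, while S588 lay between controls 1 and 2. The log2 difference was 0.87 with a standard error of 0.28, 1.83 times the control level (limma's adjusted p = 0.278, two-sided exact permutation test p = 0.0571). Without S588 it was 1.14 with a limma adjusted p of 0.0797, and the groups did not overlap.

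**Figure D2:**
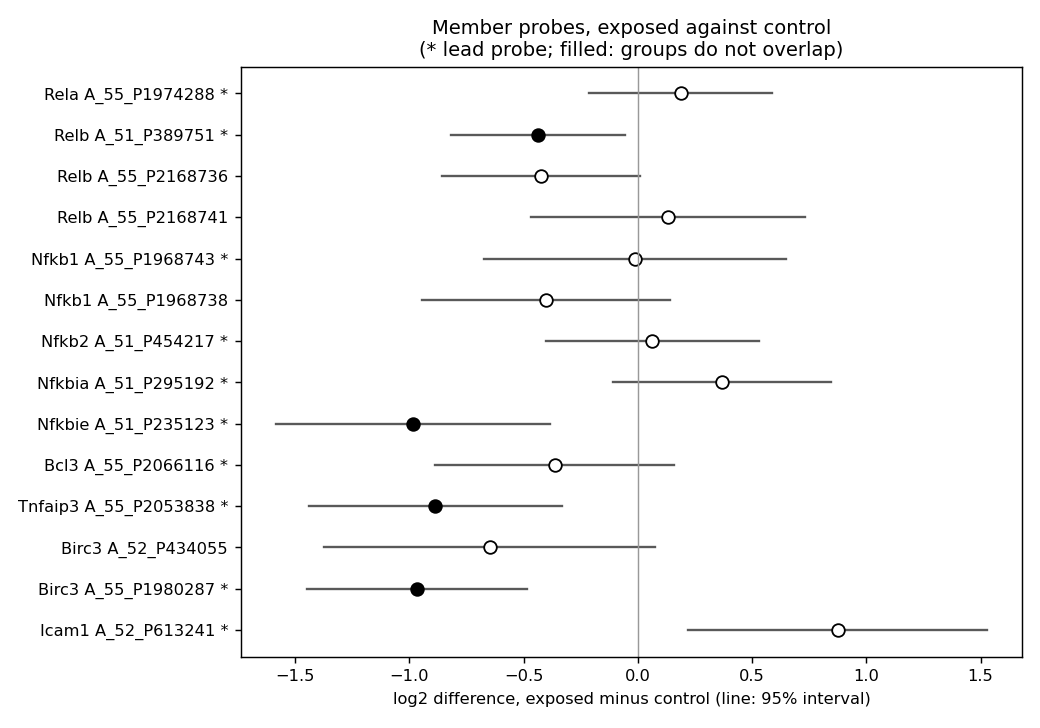
Log2 difference, exposed minus control (x axis), of the 14 member probes with 95% intervals from limma; asterisks mark the lead probes and filled points mark probes whose groups did not overlap. The intervals of Relb's lead probe, Nfkbie, Tnfaip3, Birc3's lead probe and Icam1 lie on 1 side of 0, and no adjusted p passed the threshold.

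Without S588 the log2 differences were 0.26 for Rela, −0.39 for Relb, 0.08 for Nfkb1, 0.13 for Nfkb2, 0.49 for Nfkbia, −0.96 for Nfkbie, −0.30 for Bcl3, −0.74 for Tnfaip3, −0.81 for Birc3 and 1.14 for Icam1. The groups then did not overlap in 6 of the 10 lead probes, those of Nfkbia and Icam1 in addition to the earlier 4. Without controls 1 and 2 they were 0.17 for Rela, −0.35 for Relb, −0.37 for Nfkb1, 0.34 for Nfkb2, 0.55 for Nfkbia, −0.54 for Nfkbie, −0.29 for Bcl3, −0.81 for Tnfaip3, −0.97 for Birc3 and 1.01 for Icam1. Again 6 did not overlap, with Nfkb2 and Icam1 in addition to the earlier 4. No lead probe passed limma's threshold in either case, and fewer arrays leave the groups a narrower range to overlap in. The share of all probes without overlap was not computed for these smaller sets, so both counts of 6 are a description.

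Single arrays were high or low for many members at once. S588 was the lowest of the exposed arrays for 8 of the 10 lead probes, while it was the lowest for 38.4% of all probes and 42.4% of the bright ones. Control 2 was the highest control for 7 of the 10, against 17.7% of all probes and 17.1% of the bright ones. Control 4 was the lowest control for 7 of the 10, where the share over all probes was 21.6%. The 10 genes are not independent of each other, so these counts describe the arrays. A value shared by all members of an array cancels in the difference between 2 members, and such differences were taken for the 12 pairs of lead probes with the same role.

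In 5 of these 12 pairs the groups did not overlap, and each of the 5 had an exact permutation p of 0.0286, which is 0.0686 after Benjamini-Hochberg adjustment over the 12 pairs. The pairs were tested after the single values had been seen, and the share without overlap among pairs of other probes was not computed, so the count is a description. Birc3 minus Icam1 was −0.30, −0.04, 0.04 and 0.22 on control arrays 1 to 4 and −2.25, −1.54, −1.71 and −1.93 on S539, S588, S589 and S590. The gap between the groups was thus wider than the spread within either of them, and S588 no longer lay among the controls. The pair differed between the groups by −1.84, from −0.02 ± 0.22 (SD, n = 4) to −1.86 ± 0.31 (SD, n = 4). Tnfaip3 minus Icam1 gave the like picture, at 2.12 ± 0.22 (SD, n = 4) on the control arrays and 0.36 ± 0.42 (SD, n = 4) on the exposed arrays.

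Among the inhibitors, Nfkbia minus Nfkbie was 3.77, 3.72, 4.48 and 4.05 on the control arrays and 5.37, 5.07, 5.53 and 5.47 on the exposed arrays. The difference between the groups was 1.35, and the lowest exposed value lay 0.59 above the highest control. Nfkbia minus Bcl3 differed by 0.73 with no overlap. Nfkbie minus Bcl3 differed by −0.62 with overlapping groups (two-sided exact permutation test, p = 0.0857).

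Among the subunits, Rela minus Relb was 2.84 ± 0.14 (SD, n = 4) on the control arrays and 3.47 ± 0.12 (SD, n = 4) on the exposed arrays, a difference of 0.63 with no overlap. The 5 other pairs of subunits overlapped, with differences from −0.50 for Relb minus Nfkb2 to 0.20 for Rela minus Nfkb1. Tnfaip3 minus Birc3 differed by 0.08 (two-sided exact permutation test, p = 0.629). No pair passed a threshold of 0.05 after adjustment, and such a difference does not tell which of the 2 genes changed.

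**Figure D3:**
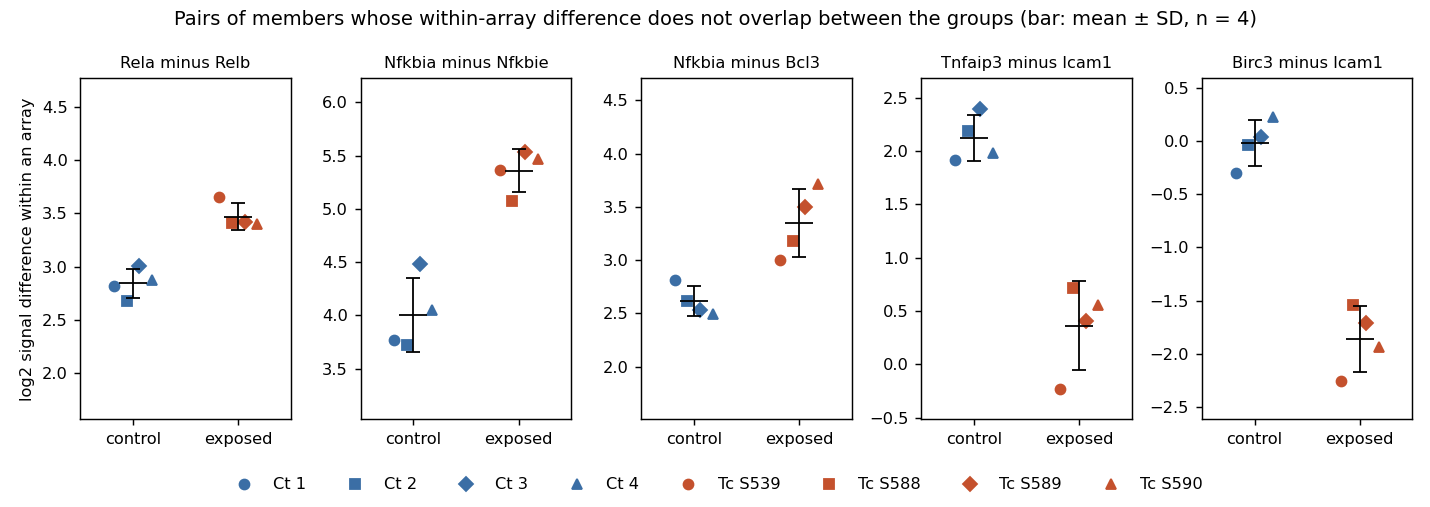
Difference of log2 signals of 2 members within each array (y axes, each spanning the same range) for the 5 of 12 pairs of the same role whose groups did not overlap, with control arrays in blue, exposed arrays in orange and bars for mean ± SD (n = 4). Birc3 minus Icam1 has the widest gap, from −0.30 on the lowest control to −1.54 on the highest exposed array.

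The rest of the pathway was read through 72 genes on 7 lists, again by lead probe. Of these, 1 was higher and 1 lower past limma's threshold, beside the 0.781% of all probes that passed. The median log2 difference of the 72 was −0.0009, with 36 higher and 36 lower. An unadjusted limma p under 0.05 was found for 26 of the 72, beside 12.2% of all probes and 13.6% of the bright ones. A median near 0 therefore does not mean that the single genes were unmoved. The groups did not overlap in 15 of the 72, where the share was 9.11% of all probes and 11.4% of the bright ones. Lists of kinases, adaptors, regulators and targets each held values in both directions.

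Lrdd, which RefSeq now names Pidd1, rose. It encodes an adaptor that after DNA damage can bring IKK-gamma into a nuclear complex, and it is also a p53 target. The control arrays had a log2 signal of 7.01 ± 0.19 (SD, n = 4) and the exposed arrays one of 10.12 ± 0.47 (SD, n = 4). The difference was 3.11 with a standard error of 0.25 (limma's adjusted p = 0.0032), and without controls 1 and 2 it was 3.18 with a limma adjusted p of 0.0524. The other 6 genes of the genotoxic arm did not pass, and the lowest was Parp1, the sensor of DNA strand breaks, with −0.50 (limma's adjusted p = 0.331).

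Tlr2, a receptor for bacterial lipoproteins that signals to NF-kB, fell. Its log2 signal was 12.61, 13.01, 13.04 and 12.56 on the control arrays and 11.65, 11.40, 11.84 and 11.77 on the exposed arrays, with no overlap. It fell by 1.14 on the log2 scale with a standard error of 0.18 (limma's adjusted p = 0.0364). This call was lost when any array but control 1 was left out, with adjusted p-values up to 0.131, and also without controls 1 and 2 (0.167). The log2 difference itself lay between −1.22 and −1.05 with each array left out and was −1.13 without controls 1 and 2. Of the other 17 adaptors and receptors none passed. Cd40, a receptor of B cells and dendritic cells, had the lowest value, −1.16 (limma's adjusted p = 0.256), which became −0.55 without controls 1 and 2. Tnfrsf1a, the main TNF receptor, had the highest, 0.55 (0.182).

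Among the 9 IKK kinases and their activators none passed. Map3k14, the kinase NIK of the non-canonical pathway, had the highest difference, 0.70 with a standard error of 0.18 (limma's adjusted p = 0.172), and Tab1 the lowest, −0.35 (0.278). Ikbkg, which encodes IKK-gamma and was named after its values were seen, differed by 0.62 with a limma adjusted p of 0.0728 and no overlap. It passed under several alternatives, with a lowest adjusted p of 0.0326 with array weights. Rel, the subunit outside the members, gave 0.87 with a standard error of 0.75 (limma's adjusted p = 0.659). It was well above background on 1 control and 3 exposed arrays, so the size rests on signals near background. It became 0.23 without control 4 and 1.52 without control 1.

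Of the other IkB genes, Nfkbid had the lowest difference, −0.95 (limma's adjusted p = 0.542), and Nfkbiz the highest, 0.16 (0.707). The difference of Nfkbid became −0.41 without control 1 and 0.0075 without controls 1 and 2. Of the 9 further negative regulators none passed, with N4bp1 at 1.07 (limma's adjusted p = 0.0761) and Commd1 at −0.38 (0.491). N4bp1 passed with dim probes left out (0.0348), with array weights (0.0369) and under normexp (0.0412). It also passed without background subtraction (0.0472) and in the deposited values (0.0475). Over all alternatives its limma adjusted p ran from 0.0348 to 0.241.

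Of the 25 further target genes none passed, with 11 higher and 14 lower and a median of −0.10. Cxcl10, a chemokine that interferon and NF-kB induce together, had the lowest difference, −1.60 with a standard error of 0.44 (limma's adjusted p = 0.197), and its groups did not overlap. Nos2, the inducible nitric oxide synthase, was named after its values were seen. It differed by −0.64 with no overlap (limma's adjusted p = 0.085), and passed with dim probes left out (0.0422), with a variance trend (0.0353) and with array weights (0.04).

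Cxcl2, which draws neutrophils, was not well above background on any control array, with log2 signals from 3.00 to 3.25. It was so on S588 (7.12) and S590 (8.57), while S539 (3.01) and S589 (2.97) lay at the control level. With control signals raised to the lowest signal called well above background on their array, the exposed mean was 1.26-fold higher. S588 and S590 alone carry this value, and S539 and S589 were kept as measured, so it is no strict lower bound. The fit of Cxcl2 did not pass (limma's adjusted p = 0.501). Its log2 difference of 2.30 became 1.25 without S590. For 3 of the targets no array gave a signal well above background.

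**Figure D4:**
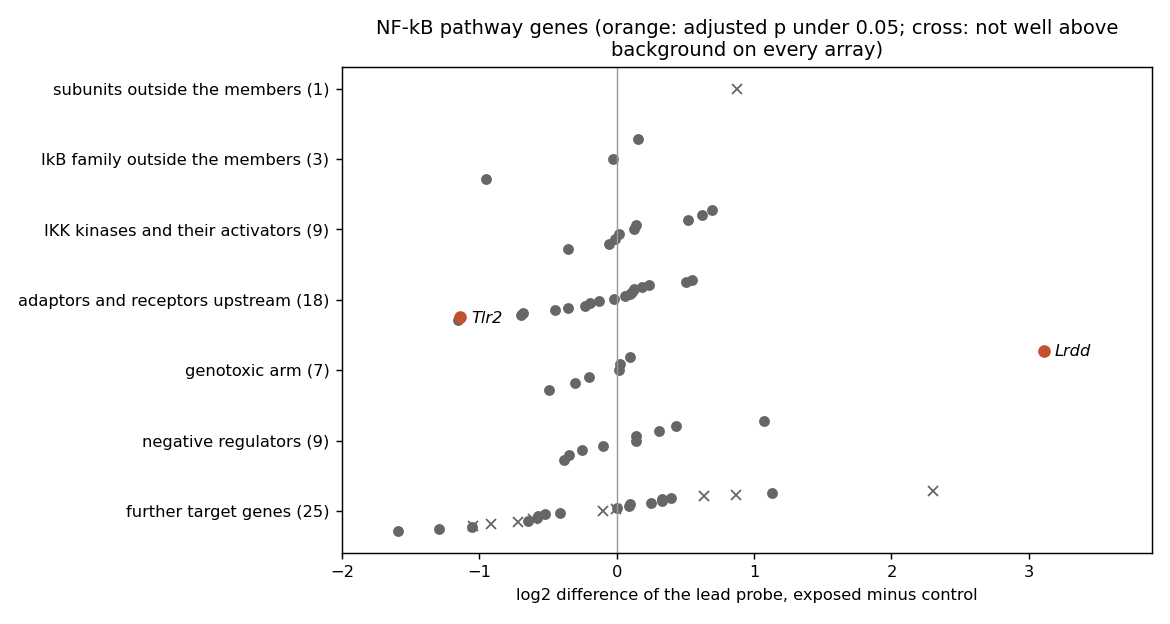
Log2 difference of the lead probe, exposed minus control (x axis), of the 72 pathway genes on 7 lists (y axis, number of genes in parentheses). Orange points passed limma's threshold (Lrdd with 3.11, Tlr2 with −1.14), and crosses mark probes that were not well above background on every array.

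Markers of other cell types moved with the groups or with single arrays, and their values stand here beside the members they move with. Dendritic cell markers had scores from 0.25 to 1.29 on the control arrays and from −0.84 to −0.58 on the exposed arrays. All 10 were lower in exposed thyroids, with a median log2 difference of −1.66, and 2 of them, Clec9a and H2-Aa, passed limma's threshold. Clec9a was well above background on no exposed array, and Xcr1 on no array. The groups did not overlap in this score, as they did not in Relb, Nfkbie, Tnfaip3, Birc3 and Tlr2, and its part in those differences was not tested.

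The T cell score ranged from −1.16 to 3.38 on the control arrays and from −1.07 to −0.19 on the exposed arrays, and no gene of that list passed. The list of developing T cells behaved alike, from −1.18 to 3.01 and from −1.07 to −0.16. Of the 10 T cell genes, 7 were well above background on all arrays. Controls 1 and 2 lay above controls 3 and 4 for 3 of the 10 member lead probes and below them for 1, where these shares over all probes were 15.0% and 22.2%. The members above were Nfkb2, Nfkbie and Icam1, and the member below was Nfkb1. Neutrophil markers were higher on S588 than elsewhere, the array on which Icam1 and Nfkbia lay among the controls, and the part of these cells in that was not tested.

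The thyrocyte score was −0.05 to 0.93 on the control arrays and −0.51 to −0.36 on the exposed arrays, with 2 of 10 genes lower past limma's threshold, Slc5a5 and Dio1. Fibroblast scores lay from 0.11 to 0.39 on the control arrays and from −0.43 to −0.01 on the exposed arrays. Neither score over its full list overlapped between the groups, and their part in the members' values was not tested. The separation of the thyrocyte score rests on Slc5a5 and Dio1, with log2 differences of −3.53 and −2.46. With both taken out, control 1 would lie below the exposed arrays. Thy1, 1 of the 7 fibroblast genes, was high on the same controls as the T cell markers, with 15.53 and 14.90 on controls 1 and 2. On controls 3 and 4 it was 13.42 and 13.41. With Thy1 taken out, control 1 would lie below S588 in the fibroblast score, so its separation of the groups rests on this gene. Endothelial scores overlapped, from −0.34 to 0.34 and from −0.21 to 0.26. Scores of macrophages (−0.03 to 0.26 and −0.31 to 0.02), B cells (0.03 to 0.46 and −0.70 to 0.21), skeletal muscle (−0.36 to 1.04 and −1.36 to 0.61) and the parathyroid and C cell list (−0.51 to 0.16 and 0.01 to 0.44) overlapped as well.

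**Figure D5:**
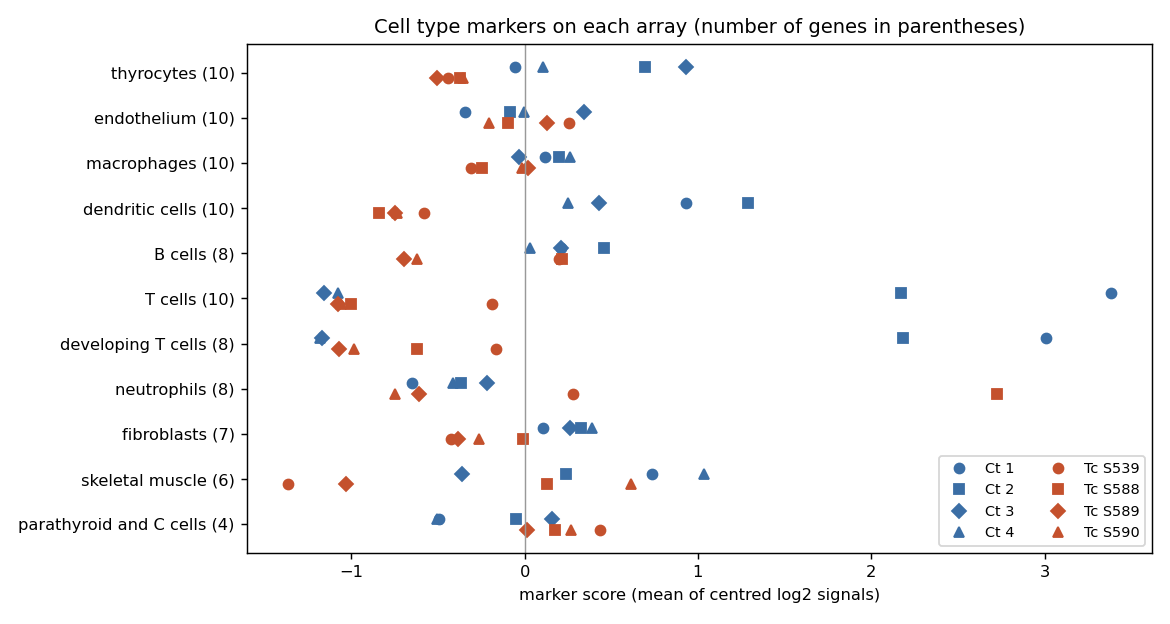
Score of each of 11 marker lists (y axis, number of genes in parentheses), the mean of the centred log2 signals of its genes (x axis), on the control arrays (blue) and the exposed arrays (orange). The dendritic cell scores do not overlap, the T cell scores of Ct 1 (3.38) and Ct 2 (2.17) and the neutrophil score of S588 (2.72) stand apart.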

How the data were processed

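The authors hybridised thyroid RNA of 8 mice to one-colour Agilent arrays and deposited the scanner output, in which each spot's brightness is an intensity made by Feature Extraction 10.7.3.1, and a table of log2 values. Per the methods these were normalised by quantiles in limma. Quantile-normalised median spot intensities without background subtraction gave the deposited log2 values to within 0.0378. Probe positions are in mm9, and promoters come from RefSeq on GRCm38.p6.

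Here the background-subtracted intensity was put on the log2 scale, quantile-normalised, and averaged over the spots of a probe, without control spots. Exposed and control arrays were compared across all 55681 probes by lmFit and eBayes (limma 3.58.1, R 4.3.3) with Benjamini-Hochberg adjustment and a threshold of 0.05. The code was tested on simulated data. Named were all 10 members with all their probes, every pathway gene past the threshold, and the highest and lowest gene of each pathway list. Members, gene lists and tests were chosen with earlier results of these data known. Alternatives were scaling to the 75th percentile, normexp (offset 50), no background subtraction, the deposited values, dim probes removed, a variance trend, array weights, outlier spots left out, gene means or any probe in place of lead probes, and each array left out in turn. Leaving out controls 1 and 2 together and the tests of pairs were added after seeing the data. The number of arrays limits the precision, and the fit holds no batch term.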

Additional observations from a re-analysis of the deposited data

Results flagged for a closer look

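In groups of 4 arrays, the highest or lowest value was taken as apart where its gap to the nearest other value, as a share of the group's range, exceeded Dixon's critical value for 4 values. Over 78 such groups (member probes, marker scores and named pathway genes) this held for 3 values, where chance alone gives about 1 in 20. The probe of Birc3 that is not its lead probe had 9.22 on control 1, with the other controls between 8.10 and 8.27. The T cell score of S539 was −0.19, with the other exposed arrays between −1.07 and −0.999. Tnfrsf1a had 13.91 on S539, with the other exposed arrays between 13.58 and 13.63.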

How the results depend on the processing

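The number of member probes and of member genes past limma's threshold was 0 and became 1 (Birc3) under normexp background correction and with array weights. It was 0 in all other alternatives run, with gene means or any probe of the gene included. Over all probes the count of 435 became 856 under normexp, 962 without background subtraction, 955 in the deposited values, 733 without dim probes, 744 with a variance trend and 959 with array weights. It lay between 100 and 481 with each array left out, lowest without S590, and was 89 without controls 1 and 2. Pathway genes past the threshold numbered 2 and became 4 under normexp and in the deposited values, 5 without background subtraction, without dim probes and with array weights, 1 to 2 with each array left out, and 0 without controls 1 and 2. Of the 10 lead probes, 4 had groups that did not overlap, and 4 to 6 in every alternative run. Removing dim probes, a variance trend and array weights leave the signals of these probes unchanged, so counts of overlap could not change there. The share over all probes was not computed for the alternatives. The 5 pairs without overlap became 8 with outlier spots left out and 8 without controls 1 and 2, and lay between 5 and 6 with each array left out. Leaving out outlier spots removes the values of some members on some arrays. As with arrays left out, this leaves the groups a narrower range to overlap in.

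The log2 differences of the other 8 members kept their direction in every alternative run. That of Nfkb1, −0.0128, became 0.0126 under scaling to the 75th percentile and 0.0752 with outlier spots left out. With each array left out it lay between −0.2342 and 0.1884, and was above 0 without control 3, control 4, S588 or S590. That of Nfkb2 lay between −0.0728 and 0.2045 with each array left out, and was below 0 without control 4. Nfkbid, a pathway gene, became 0.0075 without controls 1 and 2. The cause of these changes was not tested. No paired analysis was possible because the labels give the groups no shared replicate numbers.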
